A study of Mus musculus with 62 samples.

Results

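The comparison described here is the addition of pterostilbene (PT) to nicotinamide riboside (NR) in running mice, read from the RNA of quadriceps muscle. It sets 8 libraries from runners with NR and PT against 7 libraries from runners with NR alone, chosen by sample title, out of 62 libraries in the series. All mice were male, and each library, with its own title and body weight in the labels, is taken as 1 mouse. The other groups of the 2 by 2 by 2 design (running, NR, PT) are runners with PT alone (8), runners with neither (7) and 4 groups of 8 non-runners each. The title of the series gives running as voluntary and NR as intravenous. The labels state only that NR or PT was present or absent, and no source used here gives the strain, the age, the doses or the route of PT.

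Nicotinamide riboside is a form of vitamin B3 that cells phosphorylate and turn into NAD, the electron carrier of fuel oxidation and the substrate of sirtuin and PARP enzymes. Pterostilbene is a methylated relative of resveratrol, a plant stilbenoid often studied together with NAD precursors because it has been described as acting on sirtuins, on the aryl hydrocarbon receptor and on antioxidant genes. Mouse quadriceps is built mostly of fast-twitch fibres, which carry the myosin heavy chain Myh4, with small slow-twitch regions that carry Myh7.

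No gene passed the test for PT added to NR in runners. With edgeR's quasi-likelihood test and Benjamini-Hochberg adjustment, 0 of 14549 genes (0%) had an adjusted p below 0.05, and the lowest adjusted p was 0.411. Levels are in CPM, read counts scaled to the size of the library. At an unadjusted p below 0.05 there were 763 genes (5.24%), of which 378 (2.6%) were higher and 385 (2.65%) lower with PT. DESeq2 called 5 genes, Lars2, Gm23935, Gm24270, Gm24187 and Gm26917, all of them lower with PT. Each of these was far higher in 1 library, Training_NR_noPT_1, than in any other, for example Lars2 at 119 to 856 CPM in NR and PT runners, against 118000 CPM in that library and 152 to 853 CPM in the other 6 NR runners. Lars2, Gm23935 and Gm26917 are in the list of ribosomal-RNA-like genes used below. The standard error of a log2 change had a median of 0.11, so that the 95% interval of a typical gene reached 0.22 to either side, or 1.17-fold. The half-width was 0.13, or 1.09-fold, for genes averaging 100 CPM or more and 0.69, or 1.62-fold, for genes under 1 CPM. The median absolute log2 change over all genes was 0.08, and 58 genes differed by more than 2-fold, 30 of them with a mean under 1 CPM. These intervals are for 1 gene without adjustment, and a difference had to be larger than them to pass the adjusted test: Stard10 at 0.33 and Ssbp2 at -0.27, both described below, did not pass.

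The libraries differed in ways that bear on these values. Total counts ran from 9189306 to 27219076 in NR and PT runners, against 5642043 to 28084612 in NR runners. Training_NR_noPT_1, the smallest library, had 28.1% of its counts on ribosomal-RNA-like genes, where the other 14 libraries had 0.194% to 0.622%. It lay at 45.9 on the first principal component, which held 39.4% of the variance over 7573 genes averaging 10 CPM or more, while the other libraries lay between -8.16 and 3.15. Among NR runners it was the highest library for 29.6% and the lowest for 36.6% of these genes, where an even share is 14.3%. Training_NR_PT_6 carried transcripts of liver genes, and Training_NR_PT_4 and Training_NR_PT_5 had the highest levels of the slow myosin gene Myh7, as given below. Summed over the slow-fibre list, Training_NR_PT_4 and Training_NR_PT_5 had 4110 and 3620 CPM. Training_NR_PT_3 and Training_NR_PT_2 had more, at 4440 and 4250 CPM. The sample was muscle by its markers: the summed level of 10 skeletal muscle fibre genes was 112000 to 140000 CPM in NR and PT runners, against 125000 to 223000 CPM in NR runners.

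Without Training_NR_noPT_1 the count of genes that passed stayed at 0 of 14654 (0%), and 511 genes (3.49%) had an unadjusted p below 0.05, 260 higher (1.77%) and 251 lower (1.71%) with PT. The deviation of that library from the rest of its group went with gene length, with a Spearman correlation of 0.59 across 7573 genes, where the other 14 libraries had correlations of -0.28 to 0.26. Genes of 1 sample are not independent replicates, so these correlations are descriptions. In the comparison itself the Spearman correlation of the log2 change with gene length was -0.38 with all libraries and -0.04 without Training_NR_noPT_1. Split by length into 10 groups of equal size, the shortest genes, with a median length of 1464 bases, had a median log2 change of 0.07, and the longest, with a median of 13610 bases, had -0.06. Both medians were nearer 0 without that library, at 0.02 and 0.00.

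**Figure D1:**
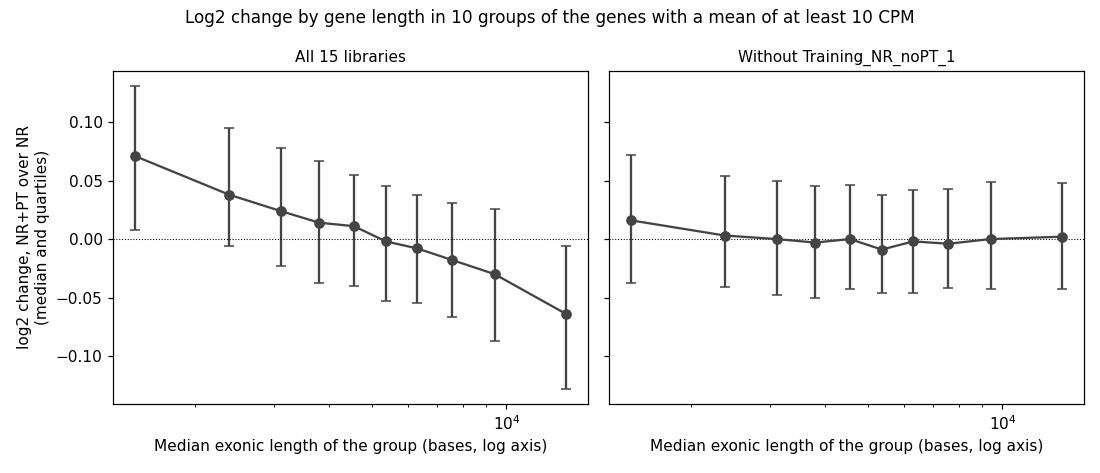
Median log2 change (NR and PT runners over NR runners) with its quartiles, in 10 groups of 7573 genes ordered by exonic length (log axis), with all 15 libraries on the left and without Training_NR_noPT_1 on the right. With all libraries the medians run from 0.07 in the shortest genes to -0.06 in the longest, and without that library they run from 0.02 to 0.00.

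Titin (Ttn), the giant spring protein of the sarcomere, shows what this library did to a single gene. Ttn was at 6670 CPM at the lowest, 8620 at the median and 12400 at the highest in NR and PT runners, against 7910, 10900 and 88100 CPM in NR runners. The highest value was that of Training_NR_noPT_1, and in the other 6 groups of the series no library exceeded 17200 CPM. Its log2 change was -0.93 ± 0.30 (SE; unadjusted p = 0.00334, adjusted p = 0.897) with all libraries and -0.15 ± 0.17 without that library. Nebulin (Neb), another giant sarcomere protein, gave -0.31 ± 0.14 with and -0.01 ± 0.08 without it. The ryanodine receptor Ryr1, the calcium release channel, gave -0.16 ± 0.11 with and 0.02 ± 0.08 without it.

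Among the genes higher with PT, Stard10, a phospholipid transfer protein (chr7:101317086-101346308, plus strand, mm10 as deposited), had the smallest p. Its level was 22.3 CPM at the lowest, 27.1 at the median and 32.4 at the highest in NR and PT runners, against 16.8, 21.8 and 29.7 CPM in NR runners. The groups overlapped, since 1 NR runner (Training_NR_noPT_2) exceeded all NR and PT runners except Training_NR_PT_2 and Training_NR_PT_7. The log2 change was 0.33 ± 0.08 (SE; adjusted p = 0.438) and 0.29 ± 0.08 without Training_NR_noPT_1. In all 7 pairs of mice ended on the same day the mouse with PT was higher.

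Sdf2l1, an endoplasmic reticulum protein of the chaperone machinery, was at 1.57, 2.51 and 2.69 CPM (lowest, median, highest) in NR and PT runners, against 0.776, 1.39 and 1.76 CPM in NR runners. Only Training_NR_PT_3 lay within the range of the NR runners, and the log2 change was 0.74 ± 0.19 (adjusted p = 0.514). Aph1b, a subunit of gamma-secretase, averaged 5.71 ± 0.738 CPM in NR and PT runners and 4.08 ± 0.444 CPM in NR runners (SD, n = 8 and 7; log2 change 0.46 ± 0.12, adjusted p = 0.675). Here too a single NR and PT library, Training_NR_PT_7 at 3.97 CPM, lay among the NR runners.

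A further 6 of the leading genes on the higher side had adjusted p-values of 0.897. These were Apoh, Tkfc (a kinase of dihydroxyacetone and glyceraldehyde), Nrep, Prune2, Epb41l4aos and Plekho1 (a pleckstrin homology domain protein), with log2 changes of 0.29 (Nrep) to 1.73 (Apoh). Tkfc averaged 4.3 ± 1.04 CPM in NR and PT runners and 3.08 ± 0.37 CPM in NR runners. Nrep, a small protein first described in regenerating neurons, averaged 170.0 ± 19.4 CPM and 137.0 ± 25.7 CPM in the same order, and was higher with PT in 7 of 7 day pairs. Epb41l4aos is annotated as antisense to Epb41l4a, and with the strand setting of the counting not given, its reads cannot be told apart from those of its partner.

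Apoh, a plasma apolipoprotein made by the liver, rested on 1 library. It was at 11.2 CPM in Training_NR_PT_6 and at 0.126 to 0.632 CPM in the other 14 libraries, and its log2 change of 1.73 ± 0.50 became 0.41 ± 0.34 without that library (unadjusted p = 0.252). Training_NR_PT_6 also held 274 CPM of albumin (Alb), against at most 1.17 CPM in the other 14. Summed over 12 hepatocyte genes, picked after their values were seen, that library had 595 CPM and the others 1.04 to 3.21 CPM. In the other 6 groups of the series the highest Alb level was 2.13 CPM. Without Training_NR_PT_6, 0 genes passed (lowest adjusted p = 0.167) and 951 of 14553 (6.53%) had an unadjusted p below 0.05.

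On the lower side Ssbp2, a DNA-binding cofactor of LIM-domain transcription complexes (chr13:91460283-91703429, plus strand), had the smallest p among annotated genes. Ssbp2 was at 11.9, 13.5 and 15.4 CPM (lowest, median, highest) in NR and PT runners, against 14.7, 15.6 and 18.6 CPM in NR runners. Training_NR_PT_8 was the single NR and PT library inside the range of the NR runners. The log2 change was -0.27 ± 0.06 (adjusted p = 0.438), -0.28 ± 0.06 without Training_NR_noPT_1, and PT was lower in 7 of 7 day pairs. The change was -0.27 within cohort 1 and -0.28 within cohort 2, the labels' 2 cohorts of animals.

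Fip1l1, a subunit of the complex that cleaves and polyadenylates messenger RNA, was at 19.0, 21.3 and 25.2 CPM (lowest, median, highest) in NR and PT runners, against 22.7, 25.2 and 27.9 CPM in NR runners. Only Training_NR_PT_6 lay within the range of NR runners, and the log2 change was -0.22 ± 0.05 (adjusted p = 0.464). The predicted gene Gm15478 had the smallest p of all genes. It averaged 0.521 ± 0.174 CPM in NR and PT runners and 1.15 ± 0.501 CPM in NR runners, with a log2 change of -1.13 ± 0.25 (adjusted p = 0.411).

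Fbp2, the muscle form of fructose bisphosphatase (chr13:62836877-62858422, minus strand), was at 32.5, 35.9 and 45.0 CPM (lowest, median, highest) in NR and PT runners, against 38.6, 51.9 and 59.0 CPM in NR runners. Its log2 change was -0.40 ± 0.11 (adjusted p = 0.675), and 5 of 7 day pairs were lower with PT. Across the series its mean ran from 36.9 ± 4.52 CPM in NR and PT runners to 51.3 ± 12.4 CPM in non-runners with neither compound. Runners with PT alone, at 40.4 ± 7.81 CPM, and runners with neither, at 42.1 ± 6.18 CPM, lay between the NR and PT runners and the NR runners at 48.5 ± 7.31 CPM. The spreads of these 4 running groups overlapped.

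Mylk, the myosin light chain kinase of smooth muscle, averaged 19.2 ± 2.38 CPM in NR and PT runners and 22.8 ± 2.44 CPM in NR runners (log2 change -0.27 ± 0.07, adjusted p = 0.604). Amigo2, a cell adhesion protein, averaged 1.93 ± 0.536 and 3.2 ± 0.948 CPM in the same order, with a log2 change of -0.76 ± 0.21 (adjusted p = 0.675). Zfp346, a zinc finger protein that binds double-stranded RNA, gave -0.22 ± 0.06 and was lower with PT in 7 of 7 day pairs. The remaining 4 leading genes were Scaf4 (which acts at transcription ends), Tnrc6a (a partner of Argonaute in microRNA silencing), P4htm (a membrane prolyl hydroxylase) and Safb2 (a nuclear RNA-binding protein), each with an adjusted p of 0.897. Training_NR_noPT_1 was the highest NR library for Scaf4, Tnrc6a and Safb2, whose log2 changes of -0.25, -0.25 and -0.22 became -0.20, -0.16 and -0.17 without it.

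**Figure D2:**
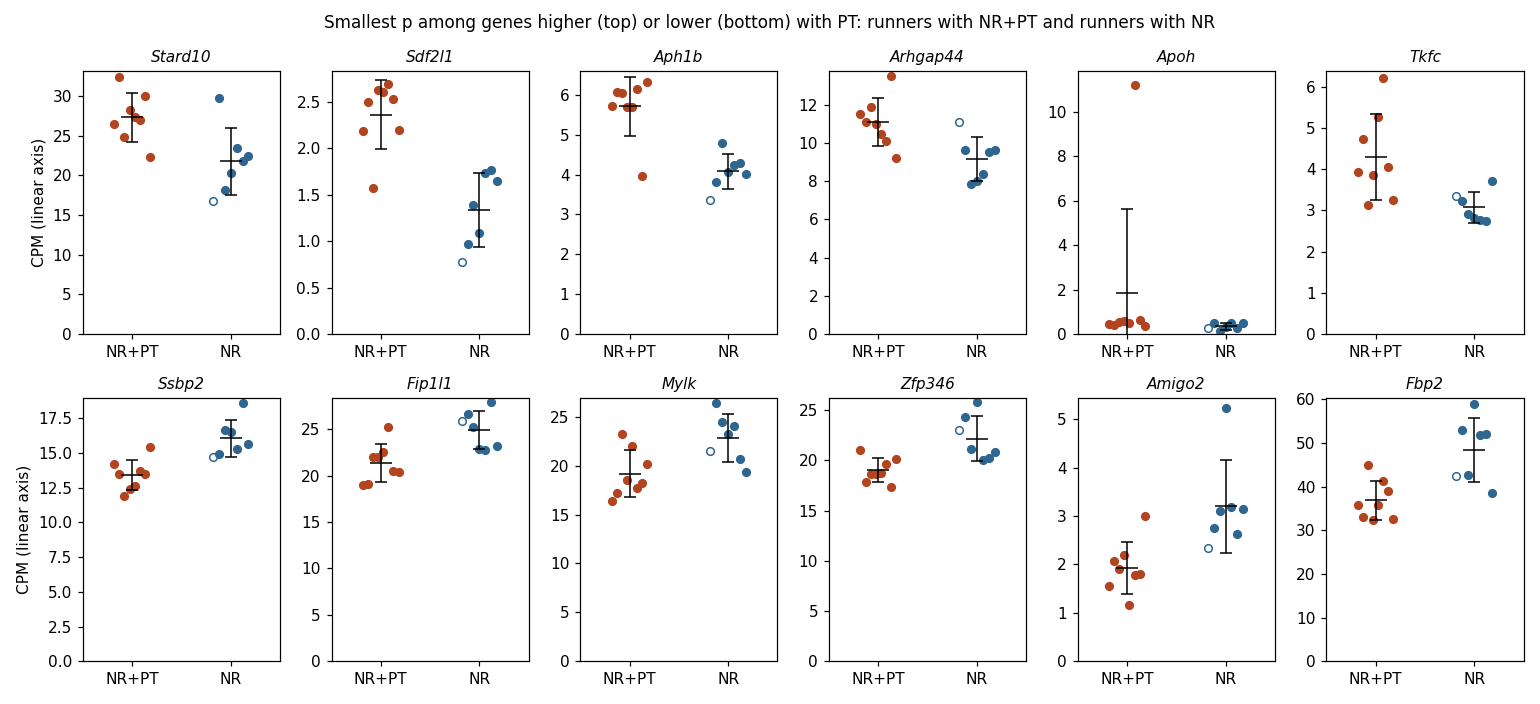
CPM in each library of the 6 genes with the smallest p among those higher (top) and lower (bottom) with PT, with predicted genes and genes under 1 CPM left out. Each point is 1 mouse, the bars are the mean and SD (cut at 0 for Apoh), NR and PT runners (n = 8) stand left of NR runners (n = 7), and the open circle is Training_NR_noPT_1. The groups overlap in every panel, and the Apoh difference is 1 library at 11.2 CPM.

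The CPM of the 2 groups did not overlap for 1 gene of 14549 (0.00687%). This was Ctf2, named here after its values were seen, which was at 0.553 to 0.714 CPM in NR and PT runners, against 0 to 0.515 CPM in NR runners (log2 change 0.74 ± 0.28, adjusted p = 0.897). All 7 same-day pairs went in 1 direction for 207 genes (1.42%), 106 higher (0.729%) and 101 lower (0.694%) with PT.

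The 20 leading genes were chosen on this contrast, so their values elsewhere are given as descriptions. Within cohort 1 (4 and 4 libraries) all 19 with a value had the sign of the whole comparison and 17 had an unadjusted p below 0.05, and within cohort 2 (4 and 3 libraries) all 20 had that sign and 8 such a p. These cohort values come from the libraries that chose the genes. In runners without NR, which share no library with this comparison, 10 of the 20 had the same sign for PT. Of these 2 had an unadjusted p below 0.05, where 2.25% of all genes had such a p in either direction. Over all 14549 genes the log2 changes of these 2 comparisons had a Spearman correlation of 0.036 and a Pearson correlation of 0.144. In non-runners with NR, and in non-runners without NR, 10 of 20 had the same sign and none had such a p. Stard10 gave -0.06 ± 0.08 for PT in runners without NR, 0.06 ± 0.07 in non-runners with NR and 0.03 ± 0.07 in non-runners without NR. Ssbp2 gave -0.04 ± 0.06, -0.09 ± 0.06 and -0.01 ± 0.06 in the same 3 settings.

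Whether the PT effect in runners differed with and without NR was tested directly, and 0 of 14549 genes (0%) passed, with 462 (3.18%) at an unadjusted p below 0.05. The smallest p-values belonged to Fip1l1, with a difference of the log2 changes of -0.32 ± 0.08 (adjusted p = 0.838), to Gm15478 (-1.42 ± 0.34, adjusted p = 0.838) and to Wdr70, a WD-repeat protein (-0.28 ± 0.07). Between runners and non-runners, both with NR, the PT effect differed for 0 genes (0%) and 577 (3.97%) had an unadjusted p below 0.05. DESeq2 called 0 and 8 of 14549 genes for these 2 differences. The 8 genes are not named here. Training_NR_noPT_1, far higher than any other library for the genes that DESeq2 called above, enters both differences. DESeq2 was not run without that library. By edgeR, Amigo2 led the difference between runners and non-runners with -1.14 ± 0.29, before Gm15478 with -1.31 ± 0.34 and Tmem45a, a transmembrane protein, with 1.22 ± 0.32 (adjusted p = 1 for each). Tmem45a had a log2 change of 0.26 ± 0.23 for PT in runners with NR and of -0.96 ± 0.22 in non-runners with NR. The PT comparisons in the other groups gave 0 genes by edgeR in runners without NR (0%), 1 gene in non-runners with NR (0.00687%) and 0 genes in non-runners without NR (0%), with 327 (2.25%), 415 (2.85%) and 360 (2.47%) genes at an unadjusted p below 0.05. The 1 gene was D830024N08Rik, named after its values were seen, at 0.85 ± 0.16 in non-runners with NR (adjusted p = 0.0362) and at 0.00 in runners with NR.

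Slow-fibre genes had the highest list median. Of 14 slow-fibre genes tested none passed, 13 were above 0 (of all genes 51.2% were above and 48.8% below), 8 were higher and 1 lower at an unadjusted p below 0.05 (2.6% and 2.65% of all genes), and the median log2 change was 0.66, where the median of all genes was 0.00. Myh7, the slow myosin heavy chain, was at 0.317, 3.43, 0.895, 29.4, 58.0, 0.414, 2.26 and 2.79 CPM in NR and PT runners 1 to 8, against 0.259, 4.78, 0.948, 0.702, 0.177, 0.878 and 1.03 CPM in NR runners 1 to 7. Training_NR_PT_4 and Training_NR_PT_5 stood above all others, and the remaining 6 lay within the range of the NR runners. The log2 change was 2.55 ± 0.98 (adjusted p = 0.897).

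The slow ventricular light chain Myl2 was at 0.414, 4.33 and 21.9 CPM (lowest, median, highest) in NR and PT runners, against 0.259, 1.21 and 3.89 CPM in NR runners. Its log2 change was 2.25 ± 0.82 (adjusted p = 0.897). The slow light chain Myl3 (3.11 ± 1.35), the slow troponins Tnnt1 (1.52 ± 0.62), Tnnc1 (1.45 ± 0.65) and Tnni1 (1.45 ± 0.66), the slow calcium pump Atp2a2 (0.25 ± 0.11) and the mitochondrial creatine kinase Ckmt2 (0.37 ± 0.18) also had positive log2 changes at unadjusted p-values of 0.019 to 0.0416. Myl3, Tnnc1, Tnni1, Atp2a2 and Ckmt2 are named after their values were seen. Phospholamban (Pln), the inhibitor of that pump, lay the other way at -1.01 ± 0.40 with all libraries and -0.77 ± 0.39 without Training_NR_noPT_1, which had its highest value of 2.33 CPM.

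Without Training_NR_PT_4 and Training_NR_PT_5 the median of the slow-fibre list was 0.10, 0 of 14 genes were higher and 1 was lower at an unadjusted p below 0.05 (2.35% and 2.73% of all genes), and Myh7 gave 0.12 ± 0.88. In that setting 744 of 14641 genes (5.08%) had such a p and 0 passed. Leaving out either of these libraries alone left 1 gene higher, with a median of 0.46 without Training_NR_PT_4 (2.26% of all genes) and 0.64 without Training_NR_PT_5 (2.77%). Without Training_NR_noPT_3 (2.13% of all genes) or Training_NR_noPT_5 (2.8%) 2 genes were higher. Without any 1 of the other 11 libraries 5 to 10 were, where 1.77% to 3.65% of all genes were. With the purification pool added to the model 2 genes were higher at such a p (2.82% of all genes), and with body weight change added 3 (2.43%). Fitted on the 15 compared libraries alone, 12 genes of the list were tested. Of these 1 was higher at such a p with group and day in the model, and 4 with group alone. In these 2 fits 3.66% and 3.07% of all genes had such a p in either direction. Without Training_NR_noPT_1 the list median was 0.57. Within cohort 1 it was 1.12, with 2 genes higher and 0 lower at such a p (11.8% of all genes in either direction). Cohort 1 without Training_NR_noPT_1 gave 0.91, with 1 higher and 0 lower (5.93%). Cohort 2 gave 0.45, with 3 higher and 1 lower (3.2%). The mean log2 level of the list was higher with PT in 4 of 7 same-day pairs and lower in 3. In the rest of the series 1 further library, from a runner with neither compound, had more than 10 CPM of Myh7 (25.4 CPM), and the group medians of the other 6 groups ran from 0.472 to 1.53 CPM. Fewer fibres of a type and less RNA per fibre cannot be told apart in whole-muscle RNA, here or for the cell type markers below.

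**Figure D3:**
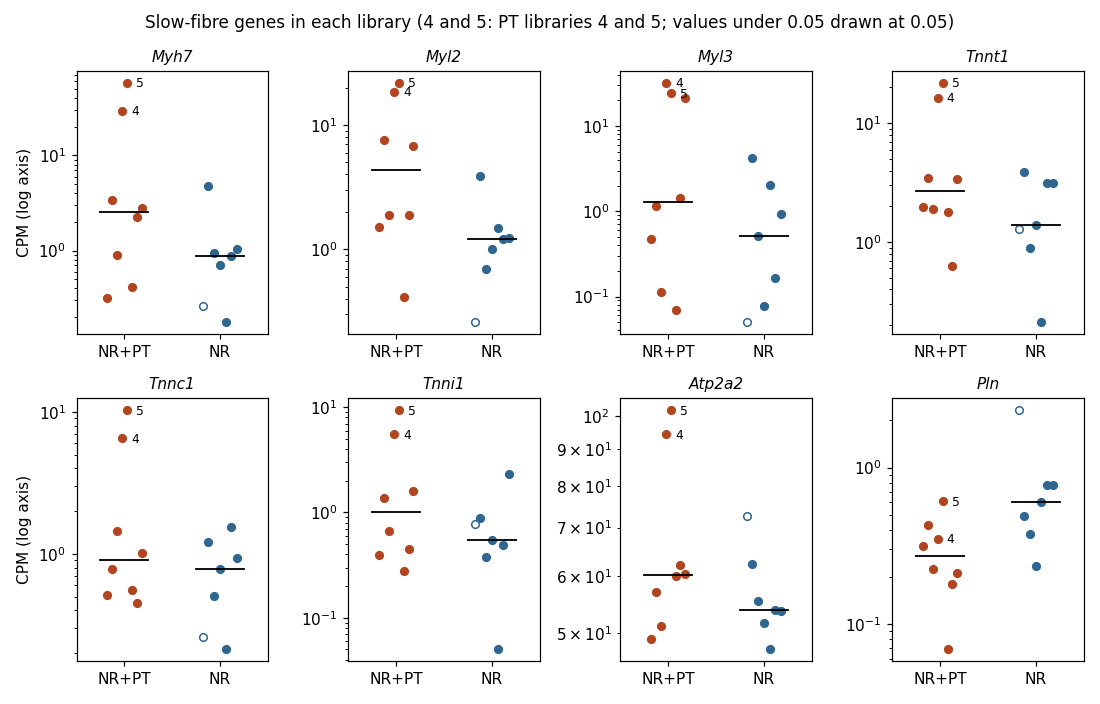
CPM on a log axis of 8 slow-fibre genes in each library, with NR and PT runners (n = 8) left of NR runners (n = 7). Lines are medians, the open circle is Training_NR_noPT_1, and the digits mark Training_NR_PT_4 and Training_NR_PT_5, which have the highest values for 7 of these genes and, for Pln, values inside the range of the others.

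Fast fibre genes had a list median near 0. Of 15 tested none had an unadjusted p below 0.05, 10 were above 0, and the median log2 change was 0.05 with all libraries and -0.04 without Training_NR_noPT_1. Myh4, the fastest myosin, averaged 55100 ± 7220 CPM in NR and PT runners and 58700 ± 5430 CPM in NR runners (log2 change -0.09 ± 0.09). Myh1 gave 0.32 ± 0.28 and Myh2, the oxidative fast myosin, 0.29 ± 0.52, with adjusted p-values of 0.915 and 0.978.

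The values for genes of the mitochondrial respiratory chain depended on which libraries entered. Of 78 nuclear-encoded genes of oxidative phosphorylation none passed and 77 were above 0 (51.2% of all genes), with a median log2 change of 0.15. In the fit of all 62 libraries 12 were higher at an unadjusted p below 0.05 (2.6% of all genes). Fitted on the 15 compared libraries alone, 1 of 78 was higher at such a p with group and day, and 2 with group alone. In these 2 fits 3.66% and 3.07% of all genes had such a p in either direction. The list mean was higher with PT in 5 of 7 same-day pairs and lower in 2. Without Training_NR_noPT_1 the median was 0.05 and 2 of 78 genes had such a p, where 1.77% of all genes did. Their summed level was 18100 to 28800 CPM in NR and PT runners, against 15300 to 26300 CPM in NR runners, and the lowest value was that of Training_NR_noPT_1. The count also was 4 without Training_NR_noPT_3 (2.13% of all genes), Training_NR_PT_2 (1.93%), Training_NR_PT_3 (2.19%) or Training_NR_PT_4 (2.26%), with medians of 0.11 to 0.14. It was larger, at 53 genes, without Training_NR_noPT_2 (median 0.21) and 45 without Training_NR_PT_6 (median 0.20), where 3.61% and 3.65% of all genes were higher at such a p. It was 27 without Training_NR_noPT_7 (3.41% of all genes) and 21 without Training_NR_noPT_4 (2.8%). Within cohort 1 the median was 0.33, with 63 of 78 genes at an unadjusted p below 0.05 on the higher side, where 5.99% of all genes had such a p on that side. Without Training_NR_noPT_1 cohort 1 gave 0.17 and 14 genes (2.89% of all genes), and cohort 2, which does not hold that library, gave -0.04 and 0 genes (1.89%).

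By gene, the complex I subunits Ndufb3 (0.25 ± 0.09), Ndufab1 (0.25 ± 0.09) and Ndufb6 (0.22 ± 0.08) and the cytochrome oxidase subunit Cox5a (0.23 ± 0.09) had the smallest p-values of the list. Ndufb3 was at 56.5, 72.0 and 84.4 CPM (lowest, median, highest) in NR and PT runners, against 41.9, 61.8 and 69.2 CPM in NR runners. Without Training_NR_noPT_1 the 4 values were 0.18, 0.21, 0.12 and 0.15 in the order given above. The 8 mitochondrially encoded genes tested were all above 0, with a median of 0.09 and 0.06 without that library, and mt-Co1, a catalytic subunit of cytochrome oxidase, gave 0.15 ± 0.10. The 21 genes of the TCA cycle and pyruvate oxidation were all above 0 (51.2% of all genes), with a median of 0.12. Of these 4 were higher at an unadjusted p below 0.05 (2.6% of all genes), and 0 when the 15 compared libraries were fitted alone. The mean log2 level of the list was higher with PT in 3 of 7 same-day pairs and lower in 4. The count of higher TCA genes was 0 without Training_NR_noPT_1 (median 0.07), Training_NR_noPT_3, Training_NR_PT_2, Training_NR_PT_3 or Training_NR_PT_4, where 1.77% to 2.26% of all genes were higher at such a p. It was 15 without Training_NR_noPT_2 and 14 without Training_NR_PT_6 (median 0.18 for each), and 9 without Training_NR_PT_7, where 3.61%, 3.65% and 3.2% of all genes were higher at such a p. Cohort 1 gave 15 genes (5.99% of all genes) and a median of 0.25, and cohort 2 gave 0 genes (1.89%) and -0.01. Without Training_NR_noPT_1 cohort 1 gave 3 genes (2.89% of all genes) and 0.15. The 4 with all libraries were Fh1 (fumarase), Pdha1 and Dld (parts of pyruvate dehydrogenase) and Mpc2 (a pyruvate carrier), at 0.16 to 0.20.

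Genes of NAD metabolism were near 0. Of 18 tested none had an unadjusted p below 0.05 and the median log2 change was -0.02. Nmrk2, the muscle kinase that phosphorylates NR, averaged 45.7 ± 18.4 CPM in NR and PT runners and 42.1 ± 20.8 CPM in NR runners, with a log2 change of 0.20 ± 0.30. Nmrk1, the widely expressed NR kinase, gave 0.12 ± 0.10, Nampt, the rate-limiting enzyme of NAD salvage, 0.04 ± 0.07, and Nnmt, which methylates nicotinamide, -0.19 ± 0.32. Among 13 sirtuins and PARPs the median was 0.03. Sirt1, the deacetylase named as a target of stilbenoids, averaged 12.6 ± 1.64 CPM and 13.1 ± 1.72 CPM in the same order (log2 change -0.05 ± 0.09), and Parp3, a DNA damage responsive PARP, was the only member with an unadjusted p below 0.05 (0.13 ± 0.06).

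Aryl hydrocarbon and antioxidant genes, the other class linked to stilbenoids, had a median of 0.01 over 28 genes. None was higher and 2 were lower at an unadjusted p below 0.05, with all libraries and without Training_NR_noPT_1, where 2.65% and 1.71% of all genes were lower at such a p. Cyp1a1, the classic aryl hydrocarbon receptor target, averaged 1.35 ± 0.303 CPM in NR and PT runners and 1.01 ± 0.275 CPM in NR runners (log2 change 0.35 ± 0.26, adjusted p = 0.910). The quinone reductase Nqo1, a target of Nrf2, gave -0.07 ± 0.08. The 2 lower genes were the extracellular glutathione peroxidase Gpx3 averaged 233 ± 37.6 CPM and 275 ± 32.7 CPM in the same order (-0.26 ± 0.09, adjusted p = 0.897), and the aldehyde dehydrogenase Aldh3a1, which gave -1.32 ± 0.50 at a mean of 0.446 CPM and 1.24 CPM.

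Adipocyte markers lay below 0 as a list. Of 13 tested 0 were above 0, 3 were lower at an unadjusted p below 0.05 (2.65% of all genes), and the median log2 change was -0.41. Without Training_NR_noPT_1 the median was -0.31 with 1 such gene (1.71% of all genes). With 1 library left out the median ran from -0.53 to -0.31 and 1 to 5 genes were lower at such a p, where 1.71% to 4.08% of all genes were. Leptin (Lep), the hormone of fat cells, was at 1.44, 13 and 33.6 CPM (lowest, median, highest) in NR and PT runners, against 5.31, 25.6 and 62.3 CPM in NR runners. The ranges overlapped widely, PT was lower in 7 of 7 day pairs, and the log2 change was -1.19 ± 0.58 (adjusted p = 0.897). The lipid droplet coat protein Plin4 gave -0.35 ± 0.11, hormone-sensitive lipase (Lipe) -0.43 ± 0.20 and carbonic anhydrase 3 (Car3), which muscle also expresses, -0.41 ± 0.22. Within cohort 1 the list median was -0.81, and -0.80 without Training_NR_noPT_1, and within cohort 2 it was 0.04. The mean log2 level of the list was lower with PT in 5 of 7 same-day pairs and higher in 2.

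Immediate early genes, which respond within minutes to stimulation, also had a negative median. Of 22 tested 3 were above 0, 3 were lower at an unadjusted p below 0.05, where 2.65% of all genes were, and the median was -0.20, or -0.22 without Training_NR_noPT_1. With 1 library left out the median ran from -0.31 without Training_NR_PT_6 (6 genes lower, 2.89% of all genes) to -0.06 without Training_NR_noPT_4 (0 genes lower, 2.7%). Without Training_NR_PT_7 it was -0.29 with 8 genes lower (2.48% of all genes). Fos, a subunit of the AP-1 factor, was at 12.5, 29.7 and 97.4 CPM (lowest, median, highest) in NR and PT runners, against 16.7, 56.4 and 127 CPM in NR runners. The groups overlapped over most of their range, and the log2 change was -0.85 ± 0.40 (adjusted p = 0.897). The antiproliferative gene Btg2 gave -0.66 ± 0.25, the mRNA decay factor Zfp36 -0.44 ± 0.21 and Jun -0.24 ± 0.13. The list median was -0.46 within cohort 1, -0.41 there without Training_NR_noPT_1, and 0.07 within cohort 2. The mean log2 level of the list was lower with PT in 4 of 7 same-day pairs and higher in 3.

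Among fuel genes, 18 targets of PPAR receptors and fasting had a median of -0.11, with 15 below 0 and 2 lower at an unadjusted p below 0.05 (2.65% of all genes). With 1 library left out the median ran from -0.18 without Training_NR_noPT_6 (4 lower, 2.84% of all genes) to -0.08 without Training_NR_PT_8, and it was -0.27 in cohort 1 and 0.03 in cohort 2. Txnip, which restrains glucose uptake, averaged 636 ± 47.4 CPM in NR and PT runners and 733 ± 66.5 CPM in NR runners (log2 change -0.21 ± 0.08, adjusted p = 0.897), lower with PT in 7 of 7 day pairs. The acyl-CoA thioesterase Acot2 gave -0.61 ± 0.25 and the lipase inhibitor Angptl4 -0.93 ± 0.51. Pdk4, the kinase that shuts pyruvate dehydrogenase during fasting, gave -0.46 ± 0.43, and -0.22 ± 0.45 without Training_NR_noPT_1. The glucose transporter Slc2a4 (0.07 ± 0.06) and hexokinase Hk2 (0.06 ± 0.11) were near 0.

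In 24 insulin signalling and glucose uptake genes the median was -0.06 and 3 were lower at an unadjusted p below 0.05 (2.65% of all genes). These were the receptor Igf1r (-0.27 ± 0.10), the adaptor Grb10 (-0.23 ± 0.09) and the pseudokinase Trib3 (-0.59 ± 0.26), and without Training_NR_noPT_1 they gave -0.18, -0.23 and -0.49. Without that library the list median was -0.01, and at such a p 1 gene was lower, Grb10 (1.71% of all genes), and 1 was higher, Tbc1d1 (0.28, 1.77%). Medians were 0.03 for 26 genes of fatty acid uptake and oxidation, 0.02 for 21 entries of glycolysis and glycogen (Aldoa is listed under 2 gene IDs), where Fbp2 was the only one with an unadjusted p below 0.05, and 0.05 for 23 of cholesterol and fatty acid synthesis.

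Regulators of the exercise response had a median of 0.02 over 29 genes. Ppargc1a, the coactivator of mitochondrial biogenesis, averaged 38.2 ± 6.19 CPM in NR and PT runners and 35.8 ± 5.71 CPM in NR runners (log2 change 0.10 ± 0.10). Its relative Ppargc1b gave -0.39 ± 0.15 with all libraries and -0.19 ± 0.12 without Training_NR_noPT_1. The respiratory gene activator Nrf1 gave -0.18 ± 0.08, the nuclear receptor Ppard 0.14 ± 0.07 and the angiogenic factor Vegfa -0.01 ± 0.11. Of 22 regeneration and denervation genes 2 were lower at an unadjusted p below 0.05 (2.65% of all genes), the neonatal myosin Myh8 (4.49 ± 1.47 CPM in NR and PT runners and 5.95 ± 0.685 CPM in NR runners, log2 change -0.44 ± 0.15) and the cell cycle inhibitor Cdkn1a (-0.61 ± 0.25, lower in 7 of 7 day pairs). Sarcolipin (Sln), an inhibitor of the calcium pump, gave -0.97 ± 0.55.

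The stress and immune lists not described above had medians between -0.19 and 0.14. The medians were -0.19 for 20 glucocorticoid response genes, where Fkbp5, the co-chaperone of that receptor, gave -0.36 ± 0.24, and -0.05 for 21 genes of atrophy and protein breakdown. They were 0.00 for 16 integrated and mitochondrial stress genes and 0.07 for 20 heat shock genes, with Hspa4l (0.27 ± 0.12) the only chaperone at an unadjusted p below 0.05. Interferon response genes (27) had a median of 0.14 and inflammatory signalling genes (15) one of -0.04, with no member at an unadjusted p below 0.05 in either list. Iron handling genes (15) had a median of 0.03, with the ferritin receptor Ncoa4 at 0.16 ± 0.08 and the transferrin receptor Tfrc at 0.24 ± 0.16. Clock genes (19) had a median of -0.08 and extracellular matrix genes (38) one of 0.05.

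Markers of the other cells of muscle had medians between -0.18 and 0.19, lymphocytes and the adipocytes described above apart. The medians were 0.19 for 13 fibroblast and progenitor genes, 0.18 for 15 macrophage and neutrophil genes, -0.09 for 18 endothelial genes, -0.18 for 12 smooth muscle and pericyte genes, -0.07 for 9 satellite cell genes, -0.07 for 11 Schwann cell and nerve genes and 0.13 for 5 erythrocyte genes. Of the endothelial genes Vwf (-0.28 ± 0.11), Robo4 (-0.26 ± 0.11) and Esam (-0.19 ± 0.09) were lower at an unadjusted p below 0.05 (2.65% of all genes). Without Training_NR_noPT_1 they gave -0.17, -0.15 and -0.20, and Esam was the 1 endothelial gene lower at such a p (1.71% of all genes). Of 9 lymphocyte markers only Cd3e, a chain of the T cell receptor complex, was tested, at 3.48 ± 1.04 CPM in NR and PT runners and 2.3 ± 0.578 CPM in NR runners (log2 change 0.55 ± 0.21, adjusted p = 0.897). None of these genes passed.

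**Figure D4:**
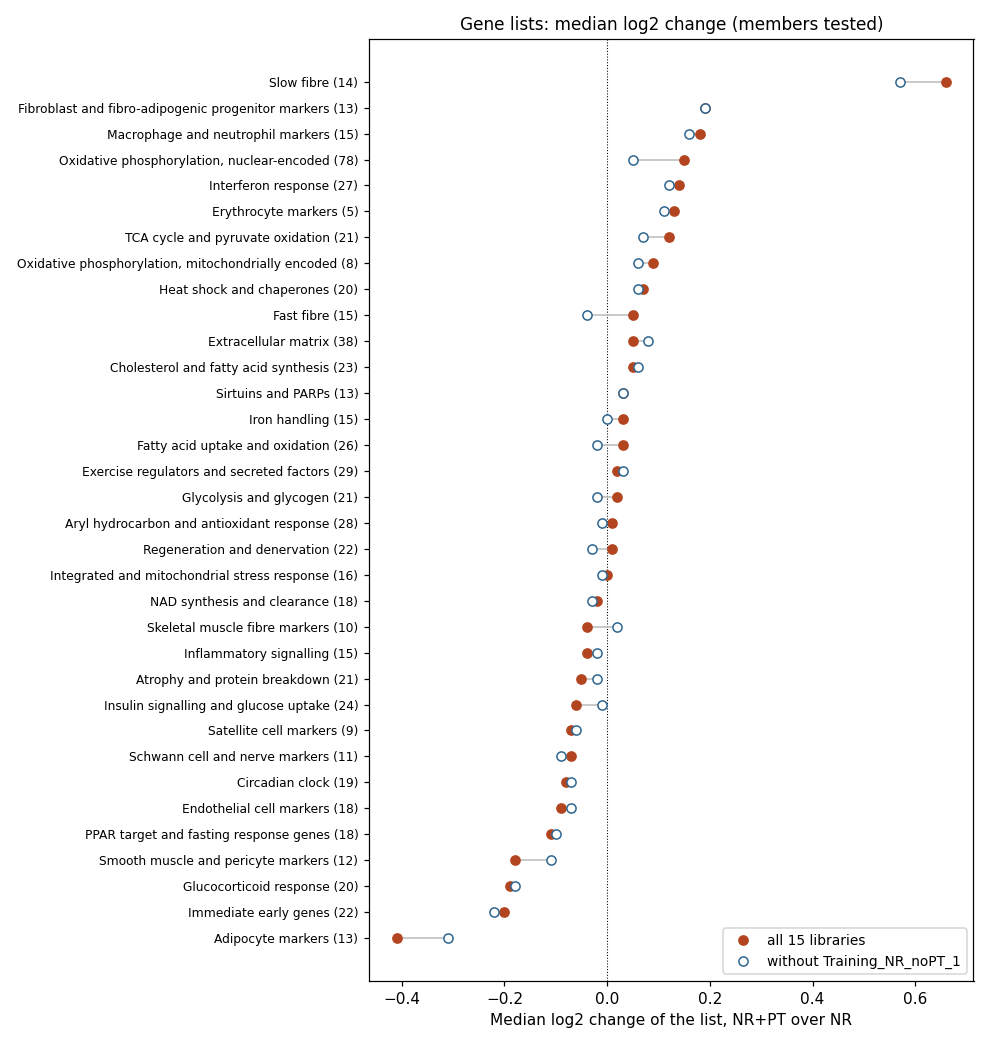
Median log2 change (NR and PT runners over NR runners) of 34 gene lists, the number of genes tested in brackets, with all 15 libraries (filled) and without Training_NR_noPT_1 (open). The lymphocyte list (1 gene tested) and the ribosomal-RNA-like list (8 tested, median -3.35, and 0.34 without that library) are not shown. Of those shown, slow-fibre genes at 0.66 and adipocyte markers at -0.41 lie farthest out, and oxidative phosphorylation moves from 0.15 to 0.05 when that library is left out.

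Body weight change, given in the labels without a unit, averaged -2.14 ± 1.95 in NR and PT runners and -0.457 ± 2.27 in NR runners (SD, n = 8 and 7), and the difference was not significant by an exact two-sided permutation test (p = 0.148, adjusted over 5 library and animal measures p = 0.538). Values were -5.2 at the lowest, -1.75 at the median and -0.2 at the highest in NR and PT runners, against -4.2, 0.2 and 2 in NR runners. All 8 mice with PT had a value below 0, against 3 of 7 without it. Within the 7 days of termination that both groups share, the mouse with PT had the lower value in 7 of 7 pairs, by a mean of -1.96 ± 1.27. An exact two-sided test over the signs of these differences gave p = 0.0156, the smallest that 7 pairs allow, and p = 0.078 adjusted over the same 5 measures. In runners without NR 2 pairs were lower and 4 higher with PT, with a mean of -0.0857 ± 2.47, in non-runners with NR 4 were lower and 4 higher, and in non-runners without NR 5 were lower and 2 higher, with a mean of -0.1 ± 1.36. With body weight change added to the model, 0 genes passed and 755 (5.19%) had an unadjusted p below 0.05.

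**Figure D5:**
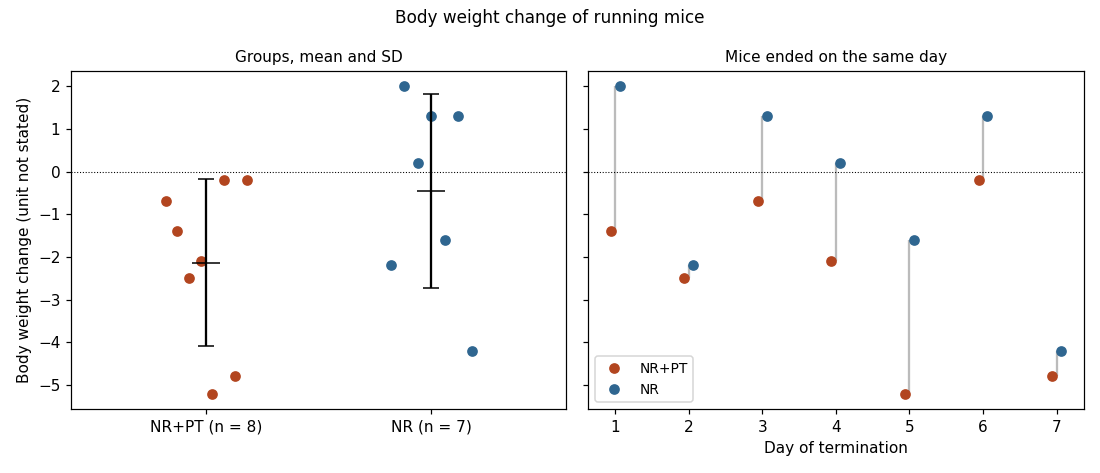
Body weight change (unit not stated) of NR and PT runners (n = 8) and NR runners (n = 7), as groups with the mean and SD on the left and by day of termination on the right, where a line joins the mice ended on 1 day. The mouse with PT lies lower on all 7 shared days, by 0.3 to 3.6, while the groups overlap.

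RNA integrity numbers were 9.62 ± 0.205 in NR and PT runners and 9.43 ± 0.525 in NR runners (exact permutation p = 0.376), and the share of mitochondrial counts was 12.7% ± 2.33 and 11.9% ± 1.44 in the same order (exact permutation p = 0.430). The ribosomal-like share averaged 0.313% ± 0.135 in NR and PT runners and 4.26% ± 10.5 in NR runners, a difference that rests on Training_NR_noPT_1 (exact permutation p = 0.281). After adjustment over the 5 measures none of these passed.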

How the data were processed

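Poly-A RNA of quadriceps muscle was sequenced for 62 mice. The authors deposited raw gene-level read counts in 1 table. Reads were aligned to mm10 with STAR 2.7.3a and counted with featureCounts 2.0.0, per the submitters' processing notes; no source used here gives the annotation release or the strand setting, so overlapping and near-identical genes are uncertain. Of 55487 gene identifiers 55394 (99.8%) matched GENCODE M21 symbols. Lengths are exonic, from GENCODE M21.

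Tests used edgeR 4.0.16 (with limma 3.58.1, R 4.3.3) on all 62 libraries: filterByExpr (minimum count 10, minimum total 15), TMM scaling and a robust quasi-likelihood F test with 8 groups, 8 days of termination and time of termination (46 residual degrees of freedom, biological coefficient of variation 14%), two-sided, Benjamini-Hochberg over all genes, called below 0.05. Errors of log2 changes are SE. CPM use TMM-scaled library sizes. DESeq2 1.42.0 was an alternative. Group differences of body weight, RIN and library measures were tested by exact permutation. The model was run on simulated counts as a check of the code. Those counts held no day effects and no library of outlying composition, so they do not show how the model behaves with such features.

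Because fewer than 5 genes passed, the 10 positive and 10 negative log2 changes of smallest p (mean of at least 1 CPM, no predicted genes) were named, with a fixed list of NR, exercise and stilbenoid genes, up to 4 genes of smallest p per list and 3 per interaction. Of the leading genes on the higher side, Arhgap44 is described only under the other observations. The comparison, the 36 gene lists and the rules were chosen with earlier results of these data known. Alternatives covered scaling, filter, tool, covariates, replicate block, cohorts and each library in turn. Title numbers were not taken to pair the samples. Same-numbered libraries deviated with correlations of -0.30 to 0.33, and 2 of 7 exceeded 0.1. Libraries of the same day had correlations of -0.09 to 0.45, and 4 of 7 exceeded 0.1. Of these day pairs 2 of 7 correlated best with their own partner, against 1 of 7 by title number. The 2 pairings have 4 pairs in common, so these few correlations cannot exclude a pairing by title number. No 2 libraries agreed within counting noise (lowest chi-square per gene 7.36). The labels do not state that libraries are separate animals beyond their own titles and body weights, and p-values measure the spread between these samples.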

Additional observations from a re-analysis of the deposited data

Results flagged for a closer look

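Library by library, 93 named genes and 5 library or animal measures were examined in each group for a highest or lowest value set apart from the rest by Dixon's criterion, 196 sets in all. Of these, 23 were set apart. The criterion sets apart about 1 in 20 independent sets by chance. Some genes here, such as Alb and Apoc1, were picked after their values were seen, and the sets share the same libraries. The count therefore cannot be read against that rate. Training_NR_noPT_1 accounted for 13 of them among NR runners. It was highest for the ribosomal-like share (28.1%), Ttn (88100 CPM), Neb (17700 CPM), Ryr1 (7970 CPM), Vwf (63.6 CPM), Ppargc1b (20.4 CPM), Igf1r (37.5 CPM), Tnrc6a (78.1 CPM), Safb2 (40.6 CPM) and Scaf4 (24.6 CPM), and lowest for Ndufb3 (41.9 CPM), Ndufb6 (38.3 CPM) and Plekho1 (6.98 CPM).

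Training_NR_PT_6 was highest among NR and PT runners for the liver genes Alb (274 CPM), Apoc1 (29.0 CPM) and Apoh (11.2 CPM), and lowest for Vwf (24.0 CPM). Single values set apart were Sdf2l1 in Training_NR_PT_3 (lowest, 1.57 CPM), Aph1b in Training_NR_PT_7 (lowest, 3.97 CPM), Grb10 in Training_NR_PT_4 (lowest, 27.3 CPM), the ribosomal-like share of Training_NR_PT_5 (highest, 0.622%), and in Training_NR_noPT_4 Amigo2 (highest, 5.23 CPM) and Sirt1 (lowest, 9.91 CPM). The Myh7 values of Training_NR_PT_4 and Training_NR_PT_5 were not set apart by this criterion, which looks at a single extreme value.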

How the results depend on the processing

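The count of genes called stayed at 0 under 30 of 32 alternatives, each library left out in turn included. The exceptions were that DESeq2 called 5 genes and the fit of 62 libraries with groups alone called 9, namely Alb, highest in Training_NR_PT_6, and 8 genes highest in Training_NR_noPT_1; both fits called 8 for the PT effect in runners minus non-runners. Genes at an unadjusted p below 0.05 numbered 511 to 1099 with 1 library left out, 1479 with no filter on low counts, 488 in 15 libraries with group and day, 409 with group alone, 1704 in cohort 1 and 480 in cohort 2. With the title number as a replicate block there were 0 called and 747 such genes, and 363 in 15 libraries with that block and no day. In cohort 2, which has 7 libraries here, these log2 changes had the opposite sign: Angptl4 0.06, Dld -0.02, Hk2 -0.15, Igf1r 0.00, Lipe 0.03, Mpc2 -0.03, Myh2 -0.08, Nampt -0.02, Ndufb6 -0.05, Neb 0.01, Nmrk1 -0.07, Nmrk2 -0.19, Nnmt 0.20, Pdk4 0.05, Ppargc1a -0.13, Sirt1 0.01, Slc2a4 -0.06, Tfrc -0.04, Ttn 0.06, Vegfa 0.03 and Zfp36 0.00.

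Cohort 1 gave -0.44 for Alb, and without Training_NR_noPT_1 it gave -0.47 for Alb, 0.07 for Ryr1, 0.00 for Nampt and 0.01 for Vegfa. With body weight change added Nnmt gave 0.05 and Hk2 -0.02. Vegfa, at -0.01, gave 0.01 with no filter and with 62 libraries and groups alone, 0.00 with 15 libraries and group alone or with RIN added, and -0.05 to 0.05 with 1 library left out. With 1 library left out Nampt ran from -0.02 to 0.08, Ryr1 from -0.21 to 0.02 and Alb from -0.35 to 4.01. Without all libraries rich in ribosomal-like reads Nampt gave -0.02, Ryr1 0.02 and Vegfa 0.04. Settings added after seeing the data left out Training_NR_noPT_1 with Training_NR_PT_6 (Nampt -0.03, Ryr1 0.03, Vegfa 0.03, Alb -0.37) and Training_NR_PT_4 with Training_NR_PT_5 (Tnnc1 -0.15, Atp2a2 -0.02). The difference in body weight change was -1.96 within days and passed before adjustment. The difference in total counts (in M) was 0.397 and turned to -1.14 within days and -1.34 without Training_NR_noPT_1, where that in ribosomal-like share turned to 0.0184. The causes were not tested.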

Other observations

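With Training_NR_noPT_1 left out, the 20 genes of smallest p changed in part, and 13 of them were also among the 20 with all libraries. The 3 on the higher side that were not were the membrane transporter-like gene Mfsd6, with a log2 change of 0.30 ± 0.09 without that library and 0.22 with it, Frrs1, a ferric reductase family member, with 0.60 ± 0.18 and 0.43, and Fmo5, a flavin monooxygenase, with 0.27 ± 0.09 and 0.25. On the lower side these were the methyltransferases Smyd2 (-0.27 ± 0.07 without and -0.21 with it) and Prmt1 (-0.18 ± 0.05 and -0.12), the endothelial gene Ecscr (-0.36 ± 0.11 and -0.28) and Rasa3, a Ras GTPase-activating protein (-0.28 ± 0.09 and -0.27). Their adjusted p-values without that library were 0.567 to 1 by edgeR's quasi-likelihood test. On the higher side Arhgap44, not Stard10, had the smallest p without that library. Its log2 change was 0.32 ± 0.08 (adjusted p = 0.567 by the same test), and 0.3 with all libraries.

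Mean body weight change by group was -2.14 ± 1.95 in runners with NR and PT (n = 8), 0.225 ± 2.38 in runners with PT alone (n = 8), -0.457 ± 2.27 in runners with NR alone (n = 7) and 0.757 ± 2.06 in runners with neither (n = 7). Non-runners averaged 1.95 ± 1.79 with NR and PT, 3.27 ± 1.23 with PT alone, 2.43 ± 2.08 with NR alone and 3.38 ± 1.08 with neither (n = 8 each). No test was run across these groups.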
